A study of Homo sapiens with 2 samples.

Results

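Ewing sarcoma signature genes that the fusion protein EWSR1-FLI1 is known to activate were examined: NR0B1, NKX2-2, STEAP1, STEAP2, PRKCB, BCL11B, LIPI, PPP1R1A, CCK and NPY1R. They were chosen by gene symbol, and all 10 were found among the 53737 genes of the deposited tables. The study sequenced RNA from the cell line SK-ES-1, an established line of Ewing sarcoma, a tumour of bone, that carries this fusion, is labelled WT for genotype and has no treatment named. There were 2 libraries, 1 from slow-cycling cells (SCCs) and 1 from cells that were not slow-cycling (non-SCCs), so both groups share line and genotype and differ in cycling class alone as far as the labels say. How the slow-cycling cells were isolated is not given in the sources used here, and the column headers carry the unexplained names LRC and non-LRC. Each table was assigned through the sample it was deposited for. With 1 library per group every difference is between these libraries, with no replicate check and no p-value.

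The fusion joins the activation domain of EWSR1, an RNA-binding protein, to the DNA-binding domain of FLI1, an ETS family transcription factor. It binds the ETS core GGAA, and runs of GGAA repeats that are silent in other cells can act as enhancers once it binds them. The genes it switches on through such sites give Ewing sarcoma much of its transcript signature, while other genes, many of them mesenchymal, are held down in its presence.

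The data gave the level of each gene in per-million units, back-transformed from deposited log2 values. The unit appears to be TPM, which is per transcript length, but the scale was not stated, so the order of levels between genes carries that limit. Of all genes, 13444 had at least 1 unit in at least 1 library and were tested, among them all 10 members. The line showed its defining markers in both libraries: the surface protein CD99 was at 213 units in the SCC and 245 in the non-SCC library, FLI1 at 34.5 and 36.6, and NKX2-2 at 99.3 and 111. All 4 T cell markers, all 4 endothelial markers and all 4 oligodendrocyte lineage markers were listed at 0 in both. So were CYP17A1 and CYP11A1 of the 3 markers of steroid-producing cells, and STAR was at 0.205 and 0. Of B cell markers, MS4A1 was listed at 0 in both and CD79A was at 32.4 and 29.9. The 5 fibroblast markers summed to 29.8 and 20.4 units, led by DCN at 15.1 and 11.7, with LUM at 0.0175 and 0.

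Promoter sequence is shown for the members at the ends of the range of ratios, NR0B1 below and LIPI and BCL11B above, and for the neighbouring pair STEAP1 and STEAP2. Each is the part of the RefSeq window before the gene's start (GRCh38.p14) that lies outside annotated exons of its strand, 5′ to 3′, with GGAA, or its reverse complement TTCC, in capitals. The window of NPY1R, the member with the second lowest ratio, lies at a start inside the gene as placed here and had no part outside exons. The stretches are chrX:30309599-30309640 (minus strand) for NR0B1, chr21:14210956-14211205 (minus) for LIPI, chr14:99272198-99272447 (minus) for BCL11B, chr7:90154219-90154374 (plus) for STEAP1 and chr7:90211490-90211685 (plus) for STEAP2.
NR0B1: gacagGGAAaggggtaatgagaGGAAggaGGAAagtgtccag
LIPI: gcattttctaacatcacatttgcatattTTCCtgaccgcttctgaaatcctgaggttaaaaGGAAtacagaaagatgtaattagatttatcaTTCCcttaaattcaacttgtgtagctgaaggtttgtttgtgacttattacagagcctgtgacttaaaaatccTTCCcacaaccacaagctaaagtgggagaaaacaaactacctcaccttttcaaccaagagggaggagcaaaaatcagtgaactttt
BCL11B: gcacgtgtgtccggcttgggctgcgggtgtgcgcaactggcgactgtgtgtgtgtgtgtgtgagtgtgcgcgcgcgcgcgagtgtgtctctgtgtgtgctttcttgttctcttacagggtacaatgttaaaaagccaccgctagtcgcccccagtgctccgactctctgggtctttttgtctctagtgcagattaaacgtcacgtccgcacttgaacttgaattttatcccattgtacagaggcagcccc
STEAP1: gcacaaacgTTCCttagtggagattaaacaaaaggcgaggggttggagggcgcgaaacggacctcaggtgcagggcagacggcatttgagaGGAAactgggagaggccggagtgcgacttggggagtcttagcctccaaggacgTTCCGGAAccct
STEAP2: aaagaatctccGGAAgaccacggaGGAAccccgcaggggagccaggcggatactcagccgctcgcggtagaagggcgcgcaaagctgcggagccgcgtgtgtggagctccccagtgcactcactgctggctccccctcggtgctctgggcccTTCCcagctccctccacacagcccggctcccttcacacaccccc

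Read together, these stretches held the ETS core in 4 of 5 cases. NR0B1 had 3 matches within 42 bases, 2 of them 3 bases apart, STEAP1 had 4, STEAP2 3, LIPI 4 and BCL11B 0. LIPI has another RefSeq window at a start inside the gene, with 2 matches. Over full windows, from 250 bases before to 50 after a start, 9 members had 13 windows, and PPP1R1A was not matched. GGAA on either strand was found in 10 of these 13 and in 95.5% of all 35116 windows of that length. A tandem pair, GGAAGGAA on either strand, which contains the single core, was in 0 of 13 and in 3.67% of all windows. The longer form CCGGAA, which also contains the core, was in the first windows of STEAP1 and STEAP2, 2 of 13 against 17.2% of all. In STEAP1 it was met on both strands in the overlapping letters TTCCGGAA. The GGAA repeat through which the fusion is known to act on NR0B1 lies further upstream than this window. A match is a description of letters, not a site.

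All 10 genes were well expressed in both libraries, and none differed by 1.5-fold. In the SCC library the levels ran from 49.2 units for NPY1R to 294 for STEAP1, and in the non-SCC library from 58.2 to 288 for the same genes. Summed over the members they came to 1456 and 1443 units, a difference of 0.851%. The log2 ratios ran from -0.30 for NR0B1 to 0.24 for LIPI, with 6 above 0 and 4 below. Their median was 0.02, beside 0.03 over all tested genes, of which 56.2% had a ratio above 0. No member was 1.5-fold higher, where 5.38% of all tested genes were, and none was 1.5-fold lower, where 1.41% were.

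**Figure D1:**
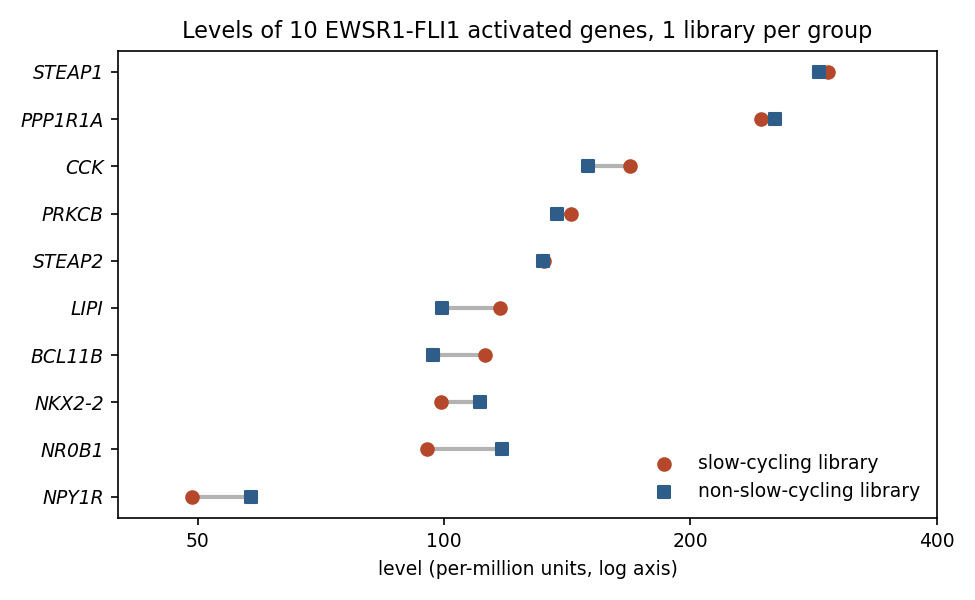
Levels of the 10 members in per-million units on a log axis, with a circle for the slow-cycling and a square for the non-slow-cycling library and a grey line joining them. NPY1R is lowest (49.2 and 58.2) and STEAP1 highest (294 and 288) in both, and the joined symbols lie close together for every gene.

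Small differences were counted at 1.1-fold, a threshold chosen after the values were seen. By it the members split into 3 higher in the SCC library (LIPI, BCL11B and CCK), 3 lower (NR0B1, NPY1R and NKX2-2) and 4 in between (STEAP1, STEAP2, PRKCB and PPP1R1A). Of all tested genes, 31.8% were higher and 19.4% lower by as much. Ratios moved with level, so the 2807 tested genes whose mean level fell in the range of the members, 53.5 to 291 units, give a closer background. There 12.8% were higher by 1.1-fold or more and 25.2% lower, and by 1.5-fold or more 0.677% and 0.178%. Their median log2 ratio was -0.05, 38.0% had a ratio above 0, and the middle 95% of them ran from -0.34 to 0.33. All 10 members lay inside those limits. Neither count of 3 can be read as particular to these genes.

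**Figure D2:**
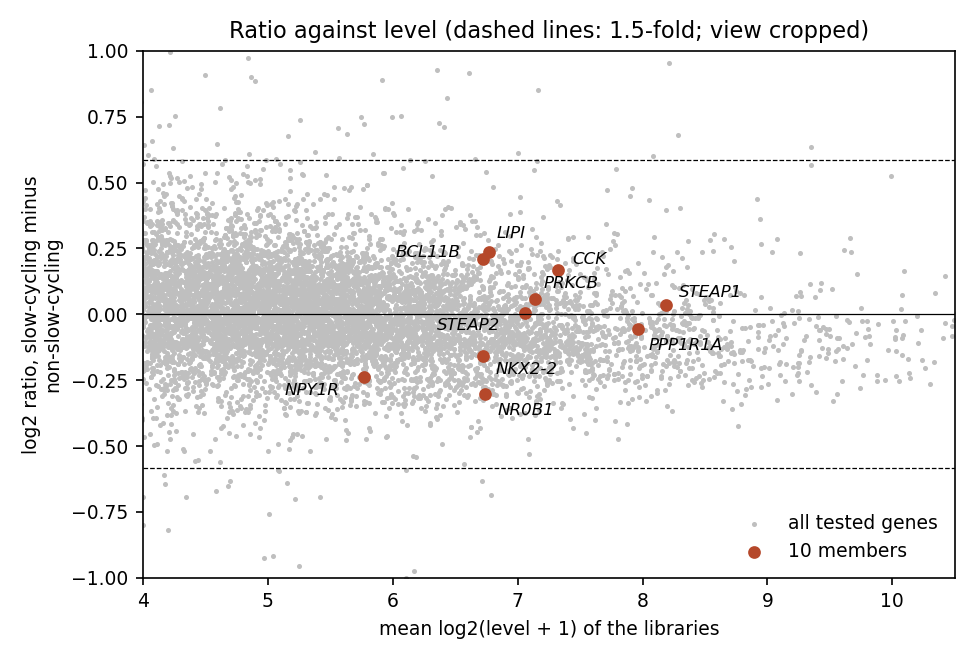
Log2 ratio, slow-cycling minus non-slow-cycling, against mean log2(level + 1) for all tested genes in view (grey) and the 10 members (red, named). The members scatter on both sides of 0, from -0.30 for NR0B1 to 0.24 for LIPI, and all sit between the dashed lines at 1.5-fold.

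The transcription factors went different ways. NR0B1, also known as DAX1, is an orphan nuclear receptor that represses transcription and lacks the usual DNA-binding domain of its family. Its gene has 2 exons on chromosome X (30304206 to 30309390, minus strand). NR0B1 was at 95.3 units in the SCC and 118 in the non-SCC library, 0.810 times as high, the largest difference of the 10. Its log2 ratio of -0.30 lay above that of 4.56% of genes in the level range. Its relative NR0B2 and the receptors it is best known to restrain, NR5A1 and NR5A2, were listed at 0 in both libraries. The corepressor NCOR1, at 53.2 and 55.9, had a log2 ratio of -0.07.

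NKX2-2, a homeodomain factor of the ventral neural tube and the pancreas and a diagnostic marker of Ewing sarcoma, was at 99.3 and 111 units. The SCC library was the lower, with a log2 ratio of -0.16, and 21.6% of genes in the level range had a ratio below it. The gene lies on chromosome 20 (21511017 to 21522689, minus strand). Among other NKX2 genes, NKX2-4 was at 52.6 and 60.1, NKX2-5 at 36.4 and 37.2 and NKX2-1 at 13.7 and 14.9, while NKX2-3 and NKX2-8 were listed at 0 in both. These 3 detected relatives had log2 ratios of -0.19, -0.03 and -0.11, below 0 like that of NKX2-2. Of all 13444 tested genes, 5882 had a ratio below 0, so the shared sign cannot be read as particular to the family. Homeobox genes of a family resemble one another, and how reads were divided among them is not given in the sources used here. The TLE corepressors, through which NKX2-2 represses its targets, showed mixed signs. TLE3 was at 65.0 and 65.7, TLE2 at 45.6 and 41.4, TLE1 at 5.22 and 5.29 and TLE4 at 3.66 and 3.09, with log2 ratios of -0.01, 0.14, -0.02 and 0.19.

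BCL11B, a zinc finger repressor required for T cell development, was at 112 units in the SCC and 97.0 in the non-SCC library. It was higher in the former by a log2 ratio of 0.21, and 93.3% of genes in its level range had a lower ratio. Its gene is on chromosome 14 (99169287 to 99272197, minus strand). The related BCL11A was listed at 0 in both libraries, as were the T cell markers above. Subunits of the NuRD complex, which BCL11B recruits, were all abundant: RBBP4 at 200.1 and 195, RBBP7 at 152 and 168, MTA1 at 144 and 152 and MTA2 at 132 and 138. Their log2 ratios, 0.04, -0.15, -0.08 and -0.06, were all smaller than that of BCL11B.

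The membrane proteins STEAP1 and STEAP2 differed least. The STEAP family spans the membrane with several helices and includes reductases of iron and copper; STEAP1 is a surface antigen of several tumours. STEAP1 was at 294 units in the SCC and 288 in the non-SCC library, and STEAP2 at 132 and 132, with log2 ratios of 0.03 and 0.00. The sign of the STEAP2 ratio changed with the scaling. Both genes lie on the plus strand of chromosome 7, STEAP1 at 90154469 to 90164827 and STEAP2 at 90211740 to 90243408, 46913 bases apart. STEAP3, an endosomal member of the family, was at 9.10 and 8.20, and STEAP4 was listed at 0 in both. STEAP1B, at 15.5 and 21.4, had a log2 ratio of -0.44, the lowest of the family. It is a close copy of STEAP1 among which reads can be divided, so both of those values are uncertain. Of the iron uptake genes, the transferrin receptor TFRC was at 121 and 123 and the transporter SLC11A2 at 26.9 and 29.2, with log2 ratios of -0.02 and -0.12.

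The kinase and phosphatase members lay near 0. PRKCB, a calcium- and lipid-dependent protein kinase C on chromosome 16 (23835983 to 24220611, plus strand), was at 143 units in the SCC and 137 in the non-SCC library. These differ by a log2 ratio of 0.06. PRKCB was above each relative given here in both libraries, the nearest being PRKCI at 35.8 and 30.8. PRKCD was at 11.3 and 10.3, PRKCA at 6.96 and 5.67 and PRKCH at 2.89 and 1.92. These 4 relatives had ratios above 0, from 0.12 for PRKCD to 0.42 for PRKCH, and none of the 4 was 1.5-fold apart. PRKCE and PRKCQ were listed at 0 in both libraries, and PRKCZ, at 0.966 and 0.243, was below the level tested.

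PPP1R1A, inhibitor 1 of protein phosphatase 1, blocks that enzyme once protein kinase A has phosphorylated it. It was at 244 units in the SCC and 254 in the non-SCC library, a log2 ratio of -0.06, and lies on chromosome 12 (54579246 to 54588659, minus strand). The related neuronal inhibitor PPP1R1B was far lower, at 9.81 and 8.36, and PPP1R1C was listed at 0 in both. Of the catalytic subunits it acts on, PPP1CC was at 443 and 459, PPP1CA at 184 and 208 and PPP1CB at 63.7 and 61.0, with log2 ratios of -0.05, -0.18 and 0.06. The kinase subunits PRKACA, at 44.5 and 42.2, and PRKACB, at 30.1 and 24.8, had log2 ratios of 0.07 and 0.27. PPP1R2, another inhibitor of the phosphatase, had the largest ratio of these genes, 0.34, at 23.7 and 18.5.

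LIPI, a secreted phospholipase that forms the signalling lipid lysophosphatidic acid and is otherwise largely confined to testis, had the highest ratio of the 10. It was at 117 units in the SCC and 99.4 in the non-SCC library, 1.18 times as high, with a log2 ratio of 0.24. Of genes in the level range, 94.9% had a lower ratio. The gene has 10 exons in its longest annotated transcript and lies on chromosome 21 (14108812 to 14210955, minus strand). Its nearest relative LIPH was at 0.461 and listed at 0, under the level tested, and PLA1A, LIPC and LIPG were listed at 0 in both libraries. Among receptors for its product, LPAR2 was at 33.9 and 35.4 and LPAR1 at 11.9 and 12.4, with log2 ratios of -0.06 and -0.05, and LPAR6 was listed at 0 in both.

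The neuropeptide genes were a ligand that was higher and a receptor that was lower. CCK encodes the precursor of cholecystokinin, a peptide of gut and brain, on chromosome 3 (42257826 to 42266185, minus strand). It was at 169 units in the SCC and 150 in the non-SCC library, a log2 ratio of 0.17 that lay above that of 90.2% of genes in the level range. Both of its receptors, CCKAR and CCKBR, and the related hormone gene GAST had a level of 0 in each library. Of the enzymes that mature such peptides, the convertase PCSK2 was at 63.8 and 52.7 and the carboxypeptidase CPE at 29.7 and 22.9, with log2 ratios of 0.27 and 0.36, while PCSK1 was listed at 0.

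NPY1R, a G protein-coupled receptor for neuropeptide Y, was the lowest member, at 49.2 units in the SCC and 58.2 in the non-SCC library. Its log2 ratio was -0.24, and 9.31% of all tested genes had a lower one. It lies on chromosome 4 (163323962 to 163344689, minus strand). Its ligand NPY was at 115 and 92.8, a log2 ratio of 0.30, so that ligand and receptor differed in sign. NPY5R, which overlaps NPY1R by 798 bases on the other strand, was at 5.53 and 6.04 with a ratio of -0.11. The receptors NPY2R and NPY4R and the ligands PYY and PPY were listed at 0 in both. The peptidase DPP4, which trims NPY, was at 1.18 and 0.285.

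The order of the members by level was alike in both libraries. STEAP1, PPP1R1A, CCK, PRKCB and STEAP2 took places 1 to 5 in each, and NPY1R place 10. LIPI, BCL11B, NKX2-2 and NR0B1 took places 6, 7, 8 and 9 in the SCC library and 8, 9, 7 and 6 in the other, where they spanned only 97.0 to 118 units. With no spread over replicates, neighbours in this order cannot be told apart by error. In the SCC library the widest steps were between NR0B1 and NPY1R, 1.94-fold, and between PPP1R1A and CCK, 1.44-fold. In the non-SCC library the step from PPP1R1A to CCK was 1.69-fold. There BCL11B, at 97.0 units, stood next above NPY1R, at 58.2.

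Genes near the members on the chromosome were mostly listed at 0, as were most genes measured. Of all 53737 genes, 14806 were above 0 in at least 1 library and 13444 reached the level tested. Within 200 kb lay 79 other genes that were in both the tables and RefSeq. Of these, 51 had a level of 0 in each library and 24 reached the level tested, with a median log2 ratio of 0.01. NR0B1 stood alone, with all 7 of its neighbours, the 4 MAGEB genes included, listed at 0. NKX2-4, which lies 113491 bases from NKX2-2 on the same strand, was described above. RBM11, an RNA-binding protein gene that also belongs to the wider list of activated genes, begins 5202 bases from the start of LIPI on the other strand. It was at 272 and 243 units, a log2 ratio of 0.16 beside 0.24 for LIPI.

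PPP1R1A also had active neighbours. PDE1B, a phosphodiesterase gene 7 bases away on the opposite strand, was at 36.0 and 39.0 units, a log2 ratio of -0.11. NCKAP1L, a regulator of actin known from blood cells and 31003 bases away, was at 320.1 and 286, above PPP1R1A itself. The antisense transcript STEAP2-AS1, on the minus strand, overlaps STEAP1 by 10359 bases and lies 105 bases from STEAP2. It was at 4.23 in the SCC and 0.483 in the non-SCC library, a log2 ratio of 1.82. The kit kept strand, but whether the counting used it is not given in the sources used here, so these reads and those of STEAP1 may not be separable. Besides STEAP2-AS1, the neighbours higher by 1.5-fold or more were PAX1, at 1.51 and 0.135, and LOC101409256, at 1.55 and 0.422. Each of these was at 4.23 units or less in both libraries. Of the 24 tested neighbours, 3 were thus 1.5-fold higher, beside 5.38% of all tested genes, and 0 were lower, beside 1.41%. These neighbours were looked up after the members' values were known.

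**Figure D3:**
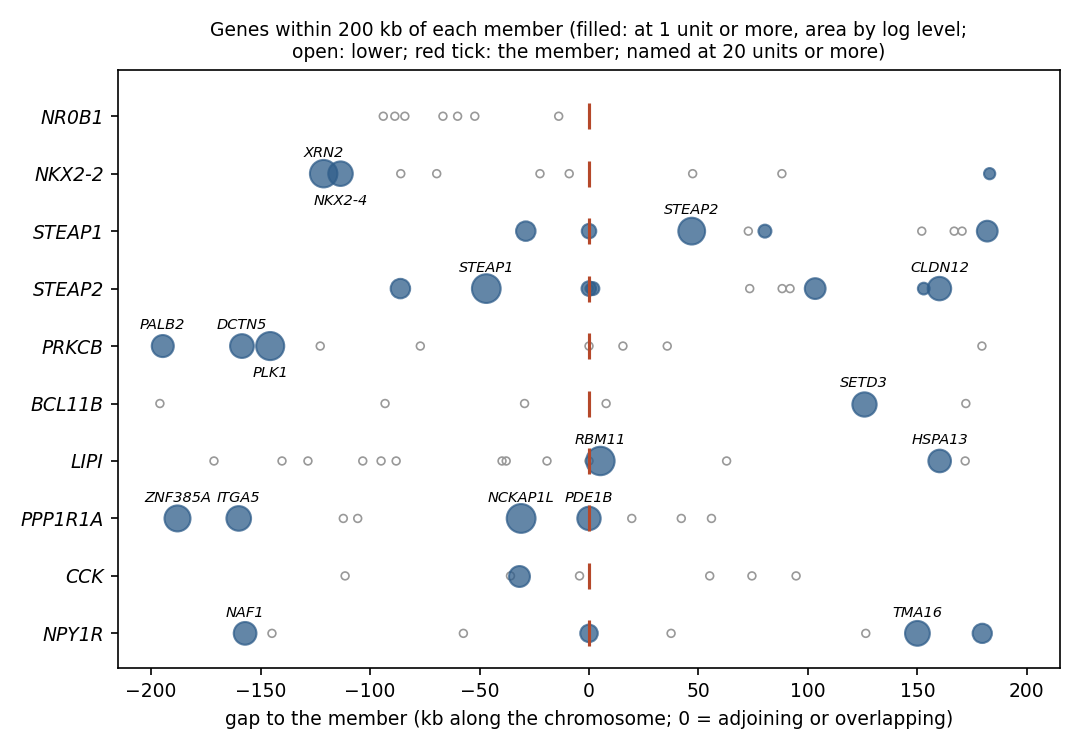
Genes within 200 kb of each member, by their gap to it in kb along the chromosome, 1 row per member. Filled circles are genes at 1 unit or more, with area by log level, open circles are lower genes, and names mark genes at 20 units or more. NR0B1 has only open circles, while large circles lie beside LIPI (RBM11), PPP1R1A (NCKAP1L and PDE1B) and STEAP1 and STEAP2 (each other).

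The rest of the activated programme, 36 genes listed from general knowledge, had a similar centre. Ratios of the 35 tested were above 0 for 23 and below for 12, with a median of 0.04. Over all tested genes, 56.2% had a ratio above 0. At 1.5-fold, 3 of the 35 were higher in the SCC library, beside 5.38% of all tested genes, and 0 were lower, beside 1.41%. The 4 most abundant were CAV1, a coat protein of caveolae, at 1433 and 1455 units, FCGRT, the neonatal Fc receptor, at 1106 and 1052, the cyclin CCND1 at 1081 and 1066, and ID2, an inhibitor of differentiation factors, at 457 and 396. The 3 at 1.5-fold were the largest ratios: EGR2, which is also an immediate early gene, at 95.4 and 36.1, a log2 ratio of 1.38, the adrenergic receptor ADRB3 at 1.47 and 0.299, and the matrix protein TNC at 5.93 and 3.30. None of the 10 members reached the ratio of these 3. CD99, on the same list, had a ratio of -0.20.

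A separate list held 6 activated genes of the cell cycle, of which 2 had a ratio above 0 and 4 below. Over all tested genes, 56.2% had a ratio above 0, and in the level range of the members 38.0% had. Not all 6 lie in that range, but the count cannot be read as a tilt of this list. EZH2, a histone methyltransferase, was at 369 and 408 units and the transcription factor MYBL2 at 169.9 and 190.2, with ratios of -0.15 and -0.16. FOXM1, at 195 and 182, and the mitotic kinase AURKA, at 99.9 and 92.4, had ratios of 0.10 and 0.11. ATAD2 was at 117 and 121. None was 1.5-fold apart.

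Both genes of the fusion itself had ratios a little below 0. EWSR1 was at 254 and 284 units and FLI1 at 34.5 and 36.6, with log2 ratios of -0.16 and -0.08. In the level range of the members, where EWSR1 lies, 25.2% of genes were lower by 1.1-fold or more and 38.0% had a ratio above 0. Its ratio thus cannot be read as particular to it. Values per gene do not tell the fusion transcript from transcripts of the intact alleles. Of 12 chromatin cofactors reported to work with the fusion, 7 had a ratio above 0 and 5 below, with a median of 0.02. Over all tested genes, 56.2% had a ratio above 0. The demethylase KDM1A was at 406 and 425, the deacetylase HDAC1 at 330.5 and 329, and the remodelling subunits SMARCA4 at 183 and 194 and SMARCB1 at 177 and 197. The cohesin gene STAG2, at 15.5 and 11.5, had the largest ratio of them, 0.40, followed by SMARCC1 at 0.22 and RNF2 at 0.21.

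The genes that the fusion is known to hold down had a different centre, and whether the fusion has a part in that was not tested. Of 18 listed, 13 were tested and the median ratio was 0.68. By 1.5-fold or more, 9 of the 13 were higher in SCCs, beside 5.38% of all tested genes, and 0 were lower, beside 1.41%. All of the 9 but CYR61 and FN1 were at or below the 12.3 units of IGFBP3 in the SCC library, and the list was not set against genes of like level. Low genes passed the fold more often: 912 tested genes were 1.5-fold apart, and 325 with a minimum level of 5. The list was also chosen with earlier results of these data known, so its count is a description and not support for a distinct programme. Abundant among them were the matricellular gene CYR61 at 175 and 85.3 units, COL1A2 at 144 and 139, fibronectin FN1 at 69.8 and 45.5 and the cadherin CDH11 at 37.1 and 30.9. COL1A2, one of the highest, had a ratio of only 0.05. PHLDA1 at 1.58 and 0.0941, SNAI2 at 2.10 and 0.350 and CTGF at 4.37 and 1.60 had larger ratios but low levels. CDKN1A was at 1.67 and listed at 0. All 4 tested fibroblast markers, of which COL1A1 stands on both lists, were higher in the SCC library too. Over all tested genes, 56.2% had a ratio above 0. The 4 markers were at or below the 15.1 units of DCN, and their part in the ratios of the repressed list was not tested. In bulk RNA, fewer cells of a kind and less RNA per cell cannot be told apart.

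**Figure D4:**
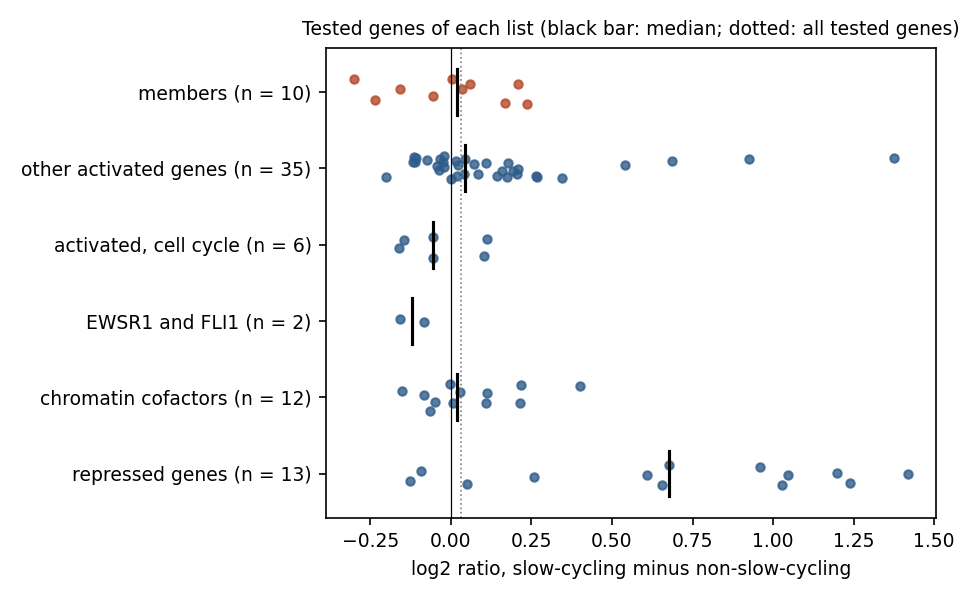
Log2 ratio of each tested gene by list, slow-cycling minus non-slow-cycling, with a black bar at each list's median and a dotted line at the median of all tested genes. The members and the other activated genes have medians of 0.02 and 0.04, while the genes the fusion holds down have a median of 0.68. The lists were chosen with earlier results of these data known, and the repressed list was not set against genes of like level.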

How the data were processed

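RNA of 2 SK-ES-1 libraries, 1 of slow-cycling cells (SCCs) and 1 of non-slow-cycling cells (non-SCCs), was compared. Total RNA was extracted and poly(A) libraries were made with a stranded kit, per the labels' protocols. Per the submitters' processing notes, hg38 was used. No aligner, counting tool or annotation is named in the labels or headers. The deposited values are called normalized in the file headers and were taken to be log2(value + 1), because the numbers were never negative and back-transformed to sums of 983638 and 984120. Read depth is therefore unknown, no interval could be given, and an exact 0 is only a listed value: all 13 mitochondrial protein-coding genes were at 0 in both libraries.

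Lines of 1 Entrez gene ID (174 lines) were summed, giving 53737 genes. Genes with at least 1 per-million unit in either library were tested (13444). A log2 ratio is log2(level + 1) in SCCs minus that in non-SCCs, which understates the difference of low genes. With 1 library per group no p-value was computed. The members and lists were chosen with earlier results of these data known. Some genes of these lists are not reported here. Other genes named are the remaining tested relatives and partners of the members, EWSR1, FLI1 and CD99, and, from each wider list, the 4 with the highest mean level and the 3 with the largest absolute ratio among genes above 0 in both libraries. Coordinates and promoter windows are from RefSeq (GRCh38.p14), and strands, exons and transcripts from GENCODE release 29 of the same build. The 1.5-fold counts were checked on simulated data with larger changes planted in genes that were not low. That check did not cover low genes or differences as small as those of the members. Alternatives covered scaling, the pseudocount, the level filter and the fold. Python 3.11.15, pandas 2.3.3 and NumPy 2.4.6 were used.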

Additional observations from a re-analysis of the deposited data

How the results depend on the processing

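With 1 library per group no replicate could be left out, depth is unknown and no error could be attached to a ratio, so small ratios have only a description. Of 75 values under other settings, 65 kept their sign and moved by under 0.1 (log2) or, for counts, by at most 1.5 times. With the median of tested genes set to 0, the members' median became -0.0122 and STEAP2 became -0.0269. With upper quartile scaling STEAP2 became -0.000153. The other 9 members kept their sign in every setting run, and no member reached 1.5-fold in any of them. Against 912 tested genes 1.5-fold apart, there were 2492 at a ratio of 5 to 4, 313 at 2-fold, 325 with a minimum level of 5, 554 among protein-coding genes and 228 with a pseudocount of 4. Within 1.5 times lay 1329 with a pseudocount of 0.1, 1134 with no filter, 899 with upper quartile scaling and 852 with the median set to 0. In the level range of the members, a background chosen after seeing the data, there were 24, and the median of tested genes was -0.0453. Counts of low genes thus move with the filter and the pseudocount.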
